A study of Mus musculus with 12 samples.

Results

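Disease-associated microglia (DAM) genes were followed in BV2 cells as a fixed set of 10 names: Apoe, Lpl, Spp1, Cst7, Itgax, Clec7a, Gpnmb, Igf1, Cd9 and Lgals3. They were chosen by gene name, with earlier results of these data known. The deposited count table holds 21834 protein-coding genes, and 9 of the 10 have a row there. Clec7a, which encodes Dectin-1, matched no row and was not analysed here. All 9 matched genes reached the minimum level for testing, 0.5 CPM (counts per 1000000 counts of the library, with library totals scaled by edgeR's TMM factors) in at least 3 of the 12 libraries.

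BV2 is an immortalized mouse microglial line. Lentiviral transduction gave a stable line with a control hairpin (shCtrl) and one with a hairpin that knocks down Anxa2 (shAnxa2), the gene of annexin A2, a calcium-dependent membrane-binding protein. Each line was kept untreated (CTRL) or put through OGD/R (deprivation of oxygen and glucose, then reoxygenation), a culture model of ischemia and reperfusion. This gave 4 groups of 3 libraries: shCtrl-CTRL, shCtrl-OGDR, shAnxa2-CTRL and shAnxa2-OGDR. The labels give 4 h without oxygen and glucose and 12 h of reoxygenation, whereas the methods give 24 h for the latter. Every group therefore carries an shRNA vector and went through puromycin selection, and a single Anxa2 shRNA means that a difference between the lines cannot be told apart from one between these cell populations. The methods call the replicates of the BV2 lines biological, each made up of technical ones, but neither they nor the labels say whether the libraries of a group came from separate cultures. The p-values measure the spread between these libraries.

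The groups follow the sample titles. A further label names all CTRL libraries wild type and all OGDR libraries Anxa2 knockdown, which conflicts with the titles. Anxa2 itself followed the titles as far as the line goes, with 171.6 ± 6.36 CPM in shCtrl-CTRL, 278.8 ± 24.3 in shCtrl-OGDR, 40.4 ± 4.86 in shAnxa2-CTRL and 19.6 ± 1.26 in shAnxa2-OGDR (mean ± SD, n = 3). Anxa2 was thus 4.25-fold lower in untreated shAnxa2 than in untreated shCtrl cells (adjusted p = 3.96e-17) and 14.2-fold lower after OGD/R (adjusted p = 1.13e-21). With OGD/R it rose 1.62-fold in shCtrl cells (0.70 on the log2 scale, adjusted p = 1.21e-09) and fell 2.06-fold in shAnxa2 cells (-1.04, adjusted p = 3.05e-10). The paper reports a rise of Anxa2 mRNA with OGD/R in BV2 cells, the direction seen here in shCtrl but not in shAnxa2 cells. With opposite directions in the lines, these values alone do not check which libraries of a line were treated.

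The same reversal ran through the table. Of the 11626 genes tested, 2555 rose with OGD/R in shCtrl and fell in shAnxa2 cells, 2610 did the opposite, 42 rose in both and 32 fell in both (adjusted p under 0.05 in each). Were CTRL and OGDR exchanged among the shAnxa2 libraries, every OGD/R direction given for shAnxa2 cells would turn, and the interactions and the line differences within a treatment would change with it. An exchange among the shCtrl libraries instead would turn the OGD/R directions of that line in the same way. Whether the treatment labels of either line are right was not tested, and all values that follow take them as given.

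Total counts ranged from 19521877 to 27288843 per library. All 16 microglia and macrophage markers examined were above the test minimum, with a summed level of 4035 to 5232 CPM in a library, while all neuron, astrocyte, fibroblast and pericyte markers stayed under 1 CPM everywhere. The oligodendrocyte markers summed to 4.23 to 6.81 CPM, mostly Mbp. The endothelial markers summed to 191 to 264 CPM, mostly Flt1 and Vwf, while 3 of the 6, among them Cldn5 and Tek, stayed under 1 CPM.

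DAM are a state of the brain's resident macrophages known from mouse models of neurodegeneration, where they gather around amyloid plaques and dying cells. In that state, genes of lipid handling, lysosomal digestion, phagocytosis and adhesion are high, and genes of resting microglia, such as P2ry12 and Tmem119, are low. The lipid-sensing receptor Trem2, with its adaptor Tyrobp, is needed for the full state in mice, and Apoe is both one of its marker genes and a ligand of Trem2. The set spans these functions: lipid handling (Apoe, Lpl), secreted signals (Spp1, Igf1), proteins of lysosomes and a galectin (Cst7, Gpnmb, Lgals3), and surface proteins (Itgax, Cd9).

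The 250 bases before the start site were searched for short motifs, which are named below. RefSeq windows of the mouse build GRCm38.p6 were found for 9 of the 10 names, the first listed one was used for each, and the missing entry is Lpl. Those of the 4 measured genes with a match to a searched motif are printed 5′ to 3′ on the strand of the gene, with the matches in capitals. Apoe lies on the minus strand (chr7:19699189-19699438), and Spp1 (chr5:104434861-104435110), Itgax (chr7:128129300-128129549) and Igf1 (chr10:87860861-87861110) on the plus strand.
Apoe: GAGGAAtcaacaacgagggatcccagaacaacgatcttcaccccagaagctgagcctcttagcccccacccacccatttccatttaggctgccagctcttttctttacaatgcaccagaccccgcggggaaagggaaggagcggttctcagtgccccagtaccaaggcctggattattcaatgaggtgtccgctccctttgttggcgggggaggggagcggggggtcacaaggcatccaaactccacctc
Spp1: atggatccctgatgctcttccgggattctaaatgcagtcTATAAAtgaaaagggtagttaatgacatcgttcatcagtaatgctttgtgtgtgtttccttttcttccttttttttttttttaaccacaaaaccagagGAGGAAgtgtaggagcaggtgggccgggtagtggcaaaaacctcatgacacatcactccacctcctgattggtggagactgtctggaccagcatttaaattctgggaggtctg
Itgax: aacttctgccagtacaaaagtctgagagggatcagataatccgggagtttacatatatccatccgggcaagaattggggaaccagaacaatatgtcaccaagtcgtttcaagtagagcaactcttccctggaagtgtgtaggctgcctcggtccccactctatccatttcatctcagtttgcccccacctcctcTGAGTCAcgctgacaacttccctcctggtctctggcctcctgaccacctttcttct
Igf1: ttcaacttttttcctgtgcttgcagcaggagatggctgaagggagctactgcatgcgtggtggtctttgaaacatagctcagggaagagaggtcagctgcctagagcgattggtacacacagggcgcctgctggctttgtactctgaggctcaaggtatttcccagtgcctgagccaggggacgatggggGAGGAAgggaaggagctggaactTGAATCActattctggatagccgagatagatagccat

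The motifs searched on both strands were GAGGAA (the core bound by the myeloid factor PU.1), TGANTCA (AP-1), CACGTG (the E-box of MITF, TFEB and TFE3), ACGTG (the core of hypoxia-inducible factors, contained in CACGTG), GGGANTTCC (a form of the NF-κB site) and TATAAA. Positions count back from the start site and refer to the first base of a match as printed. GAGGAA occurred at -250 in Apoe, -113 in Spp1, -60 in Igf1 and -96 in Clec7a, a motif held by 23.3% of all 32851 windows. TGANTCA occurred as TGAGTCA at -56 in Itgax and as TGAATCA at -37 in Igf1, against 6.75% of all windows. TATAAA occurred in Spp1 at -211, against 12.4% of windows. CACGTG (6.02% of windows), ACGTG (16.6%) and GGGANTTCC (1.43%) had no match in the windows of these genes, and Cst7, Gpnmb, Cd9 and Lgals3 had no match to any of the 6 motifs. For Gpnmb, the bases after the start in its window were not found in a GENCODE transcript of the gene, so its window may not sit at the start of an annotated transcript. A match describes letters only, and no binding was measured.

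Most DAM genes were abundant in BV2 cells. For comparison between genes, levels were expressed per length as RPKM (CPM per kb of exon). Spp1, the phosphoprotein osteopontin, had a mean of 4714 RPKM over the 12 libraries and ranked 1 among the 21780 genes with a known exon length. Gpnmb followed at 1054 RPKM (rank 20), Apoe at 596 (rank 54), Lgals3 at 435 (rank 79), Cd9 at 222 (rank 183) and Lpl at 175 (rank 233). Cst7 stood at 70.4 RPKM (rank 651). The growth factor Igf1, at 13.8 RPKM (rank 3840), and the integrin subunit Itgax, at 2.62 RPKM (rank 8433), were the least abundant. In the deposited table (build mm39), the genes lie apart from each other: Apoe at chr7:19430034-19433113 and Cd9 at chr6:125437229-125471754, both on the minus strand, and the rest on the plus strand. These are Lpl at chr8:69333143-69360100, Spp1 at chr5:104582984-104588916, Cst7 at chr2:150412335-150420864, Itgax at chr7:127728719-127749829, Gpnmb at chr6:49013480-49047863, Igf1 at chr10:87694127-87772904 and Lgals3 at chr14:47605208-47623617. No other gene of the table overlaps them.

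The 9 genes together took 1.80 to 1.87% of all counts in shCtrl-CTRL, 2.25 to 2.29% in shCtrl-OGDR, 1.96 to 1.995% in shAnxa2-CTRL and 1.58 to 1.64% in shAnxa2-OGDR. These ranges did not overlap. Spp1 and Gpnmb made up most of the share, at 0.778% and 0.684% of all counts over the 12 libraries, so it says little about the other genes. The plot of RPKM by group shows that the groups kept their abundant and scarce genes, with a difference between Spp1 and Itgax far larger than any between groups.

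**Figure D1:**
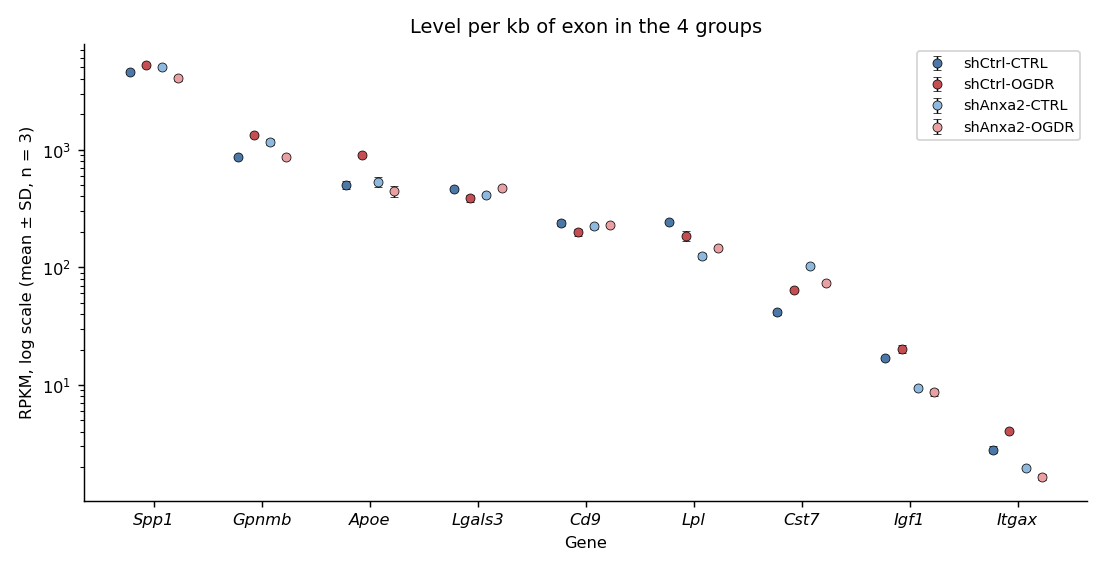
Level of the 9 DAM genes per kb of exon on a log scale of RPKM, as mean ± SD of 3 libraries in each of the 4 groups (most error bars are smaller than the points). Genes are ordered by their mean, from Spp1 at 4714 RPKM to Itgax at 2.62 RPKM.

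The question of how DAM genes respond to OGD/R was asked in each line. In shCtrl cells 6 of the 9 genes rose (Apoe, Spp1, Cst7, Itgax, Gpnmb and Igf1) and 3 fell (Lpl, Cd9 and Lgals3), all with an adjusted p under 0.05 in edgeR's quasi-likelihood test. Over the 11626 genes tested, 32.4% rose and 31% fell in that comparison, 63.4% in all. In shAnxa2 cells the direction turned: 5 of the 9 fell (Apoe, Spp1, Cst7, Itgax and Gpnmb), 2 rose (Lpl and Lgals3), and Igf1 and Cd9 did not pass the test. Over all genes, 28.2% rose and 26.8% fell there, 55% in all. None of the 9 reached a log2 fold change of 1 in either comparison, a size that 4.7% of genes exceeded upwards and 2.16% downwards in shCtrl cells (with an unadjusted p under 0.05), and 0.895% and 2.91% in shAnxa2 cells.

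The difference between these changes (shAnxa2 minus shCtrl, the interaction) passed the test for all 9 genes. It was negative for Apoe, Gpnmb, Cst7, Itgax, Spp1 and Igf1 and positive for Lpl, Lgals3 and Cd9, while 34.9% of all genes tested had a positive and 35.1% a negative interaction, 70% in all. An interaction of at least 1 in size was reached by Apoe, Cst7 and Gpnmb, all negative, a size reached by 12.8% of genes downwards and 8.95% upwards. The 5 genes that rose in shCtrl and fell in shAnxa2 cells belong to a pattern shared by 22% of all genes, and Lpl and Lgals3, with the opposite order, to one shared by 22.4%. Genes that rose in both lines made up 0.361% of those tested, and genes that fell in both 0.275%. These shares rest on the treatment labels of the libraries, and an exchange within either line would turn the pattern of the 7 DAM genes as well. The spread of all the changes is shown in the plot of log2 fold changes by gene.

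**Figure D2:**
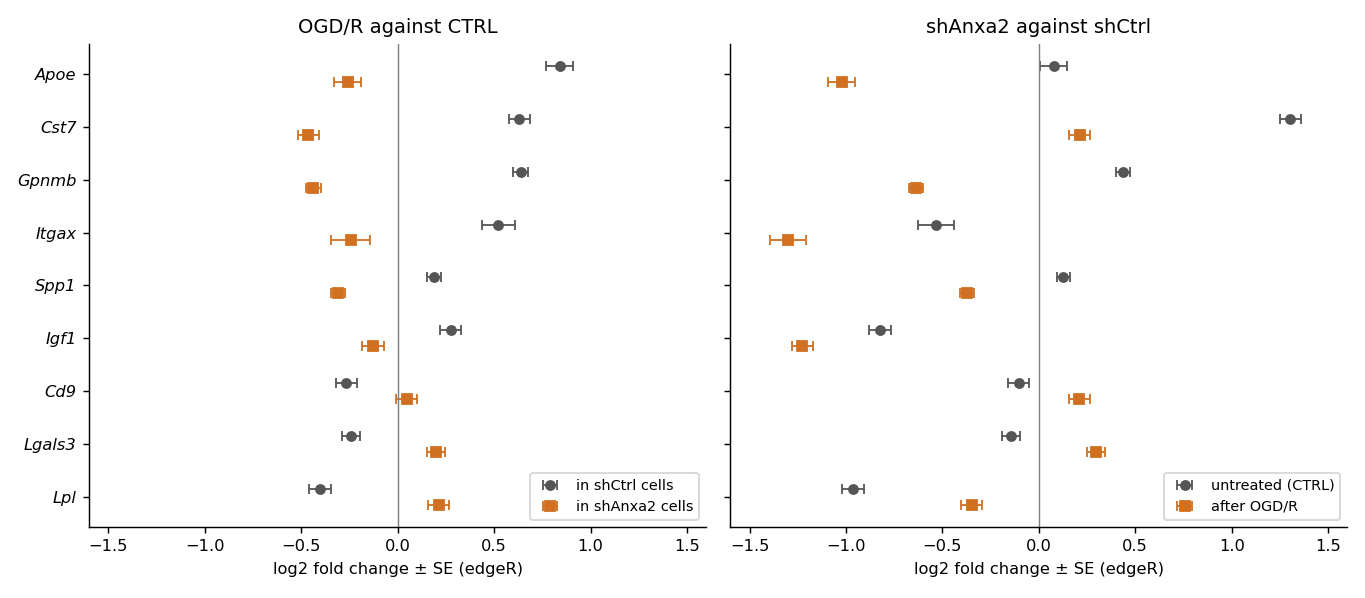
Log2 fold change ± SE (edgeR) of each DAM gene, with OGD/R against CTRL on the left (circles, shCtrl cells; squares, shAnxa2 cells) and shAnxa2 against shCtrl on the right (circles, untreated; squares, after OGD/R). Genes are ordered by their interaction, from Apoe (-1.10) at the top to Lpl (0.61) at the bottom. For all 9 genes the circle and the square on the left lie on opposite sides of 0, where the squares of Igf1 and Cd9 did not pass the test.

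Among the genes of lipid handling, Apoe, the lipid-carrying apolipoprotein that glia secrete, had the largest rise of the set in shCtrl cells. It measured 1150, 983 and 1104 CPM in the 3 shCtrl-CTRL libraries and 2022, 1918 and 1854 CPM in shCtrl-OGDR. In shAnxa2 cells it measured 1086, 1062 and 1265 CPM without and 956, 842 and 1055 CPM with OGD/R. The shCtrl-OGDR libraries stood above all the others, and the untreated libraries of both lines overlapped. OGD/R raised Apoe 1.79-fold in shCtrl cells (log2 fold change 0.84, SE 0.07, adjusted p = 2.55e-10). In shAnxa2 cells the change was 1.20-fold downwards (-0.26, SE 0.07, adjusted p = 0.0032). The lines did not differ detectably when untreated (0.08, SE 0.07, adjusted p = 0.358), a value that became -0.01 (adjusted p = 0.953) without shAnxa2-CTRL replicate 3. After OGD/R, Apoe was 2.03-fold lower in shAnxa2 cells (-1.02, SE 0.07, adjusted p = 5.63e-12), and its interaction was -1.10 (SE 0.10, adjusted p = 5.99e-10).

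Lpl, lipoprotein lipase, which splits the triglycerides that lipoproteins carry, moved opposite to Apoe under OGD/R in both lines. Its libraries measured 2522, 2522 and 2649 CPM in shCtrl-CTRL and 1719, 2082 and 2023 CPM in shCtrl-OGDR. In shAnxa2 cells they measured 1231, 1384 and 1334 CPM untreated and 1473, 1576 and 1524 CPM after OGD/R. No group overlapped another, and both shAnxa2 groups lay under both shCtrl groups. Lpl fell 1.32-fold with OGD/R in shCtrl cells (-0.40, SE 0.06, adjusted p = 1.02e-06) and rose 1.16-fold in shAnxa2 cells (0.21, SE 0.06, adjusted p = 0.00253). It was 1.95-fold lower in shAnxa2 than in shCtrl cells when untreated (-0.96, SE 0.06, adjusted p = 6.63e-13) and 1.27-fold lower after OGD/R (-0.35, SE 0.06, adjusted p = 6.57e-06). The interaction was 0.61 (SE 0.08, adjusted p = 2.28e-07).

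Of the secreted signals, Spp1, the ligand of αv integrins and CD44, was the most abundant gene of the set and changed little. The libraries measured 7686, 7266 and 7717 CPM in shCtrl-CTRL and 8592, 8538 and 8703 CPM in shCtrl-OGDR. In shAnxa2 cells they measured 8047, 8319 and 8401 CPM and, after OGD/R, 7002, 6462 and 6487 CPM. The ranges of the 4 groups did not overlap, with shAnxa2-OGDR the lowest. Spp1 rose 1.14-fold with OGD/R in shCtrl cells (0.19, SE 0.04, adjusted p = 7.47e-05) and fell 1.24-fold in shAnxa2 cells (-0.31, SE 0.04, adjusted p = 1.19e-07). In shAnxa2 cells it was 1.09-fold higher when untreated (adjusted p = 0.00388) and 1.29-fold lower after OGD/R (adjusted p = 2.19e-09) than in shCtrl cells. Its shCtrl-OGDR and shAnxa2-CTRL levels, next to each other in the order, did not separate in the test (difference 0.06, SE 0.04, adjusted p = 0.179).

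Igf1, insulin-like growth factor 1, a trophic factor that microglia release, separated the lines in both treatments. It measured 171, 165 and 162 CPM in shCtrl-CTRL and 185, 215 and 202 CPM in shCtrl-OGDR. The shAnxa2 libraries measured 96.1, 94.0 and 91.7 CPM untreated and 92.7, 83.9 and 81.0 CPM after OGD/R. All 6 shAnxa2 libraries were under all 6 shCtrl libraries, and the shAnxa2 groups overlapped each other. Igf1 was 1.77-fold lower in untreated shAnxa2 cells (-0.82, SE 0.06, adjusted p = 8.65e-12) and 2.34-fold lower after OGD/R (-1.23, SE 0.06, adjusted p = 3.18e-15). OGD/R raised it 1.21-fold in shCtrl cells (0.27, SE 0.05, adjusted p = 0.000105). In shAnxa2 cells the change of -0.13 (SE 0.06, adjusted p = 0.059) did not pass the test, but it passed without shCtrl-OGDR replicate 1 (adjusted p = 0.0314), shCtrl-OGDR replicate 2 (adjusted p = 0.0486) or shAnxa2-OGDR replicate 1 (adjusted p = 0.0136). The interaction was -0.40 (SE 0.08, adjusted p = 7.51e-05).

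Cst7, cystatin F, an inhibitor of lysosomal cysteine proteases, was the member with the largest baseline difference between the lines. Its libraries measured 38.7, 41.3 and 42.2 CPM in shCtrl-CTRL and 60.6, 63.2 and 65.4 CPM in shCtrl-OGDR. In shAnxa2 cells they measured 103.4, 98.1 and 100.3 CPM untreated and 75.7, 69.7 and 73.8 CPM after OGD/R. No groups overlapped, and both shAnxa2 groups lay above both shCtrl groups. Untreated shAnxa2 cells had 2.47-fold more Cst7 (1.30, SE 0.05, adjusted p = 1.27e-15), and after OGD/R 1.16-fold more (0.21, SE 0.05, adjusted p = 0.00128). OGD/R raised Cst7 1.55-fold in shCtrl cells (0.63, SE 0.06, adjusted p = 5.15e-10) and lowered it 1.38-fold in shAnxa2 cells (-0.46, SE 0.05, adjusted p = 9.01e-08). The interaction was -1.09 (SE 0.08, adjusted p = 5.14e-12).

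Gpnmb, a transmembrane glycoprotein of lysosomes and melanosomes, was the second most abundant member. It measured 5651, 5513 and 5616 CPM in shCtrl-CTRL and 8681, 8539 and 8873 CPM in shCtrl-OGDR. The shAnxa2 libraries measured 8059, 7456 and 7213 CPM untreated and 5719, 5491 and 5572 CPM after OGD/R. The libraries of shCtrl-CTRL and shAnxa2-OGDR overlapped, and their difference was 0.00 (SE 0.04, adjusted p = 0.998). OGD/R raised Gpnmb 1.55-fold in shCtrl cells (0.64, SE 0.04, adjusted p = 4.57e-13) and lowered it 1.35-fold in shAnxa2 cells (-0.44, SE 0.04, adjusted p = 9.21e-10). Against shCtrl cells it was 1.35-fold higher in untreated shAnxa2 cells (0.44, SE 0.04, adjusted p = 5.06e-10) and 1.55-fold lower after OGD/R (-0.64, SE 0.04, adjusted p = 2.62e-13). The interaction was -1.07 (SE 0.05, adjusted p = 7.94e-15).

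Lgals3, galectin 3, which binds β-galactosides and gathers on damaged lysosomes, went the other way. It measured 874, 845 and 839 CPM in shCtrl-CTRL and 669.7, 724 and 769 CPM in shCtrl-OGDR. In shAnxa2 cells it measured 769, 790.4 and 755 CPM untreated and 873, 880.3 and 902 CPM after OGD/R. The high groups, shCtrl-CTRL and shAnxa2-OGDR, overlapped each other, as did the low groups, shCtrl-OGDR and shAnxa2-CTRL. Lgals3 fell 1.18-fold with OGD/R in shCtrl cells (-0.24, SE 0.05, adjusted p = 9.7e-05) and rose 1.147-fold in shAnxa2 cells (0.20, SE 0.05, adjusted p = 0.00109). The interaction was 0.44 (SE 0.07, adjusted p = 2.9e-06).

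On the cell surface, Itgax, which encodes the integrin αX (CD11c) that pairs with the β2 chain, was low and differed strongly between the lines. It measured 14.5, 12.7 and 13.4 CPM in shCtrl-CTRL and 19.47, 19.42 and 19.41 CPM in shCtrl-OGDR. The shAnxa2 libraries measured 9.63, 9.38 and 9.05 CPM untreated and 7.75, 7.55 and 8.39 CPM after OGD/R. No groups overlapped, and all shAnxa2 libraries lay under all shCtrl libraries. Itgax was 1.45-fold lower in shAnxa2 cells when untreated (-0.53, SE 0.09, adjusted p = 2.43e-05) and 2.46-fold lower after OGD/R (-1.30, SE 0.09, adjusted p = 8.44e-12), the largest line difference of the set in that state. OGD/R raised it 1.44-fold in shCtrl cells (0.52, SE 0.08, adjusted p = 9.13e-06). The fall in shAnxa2 cells (-0.24, SE 0.10, adjusted p = 0.0417) kept its direction without any 1 library, at -0.29 to -0.22, but not always its call. The adjusted p became 0.101, 0.0781 and 0.0501 without shAnxa2-CTRL replicates 1, 2 and 3 in turn, and 0.0912 and 0.121 without shAnxa2-OGDR replicates 1 and 2. The interaction was -0.77 (SE 0.13, adjusted p = 1.42e-05).

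Cd9, a tetraspanin that organizes integrins in the membrane, had the smallest interaction of the set. It measured 471.5, 518 and 476 CPM in shCtrl-CTRL and 371, 419 and 427 CPM in shCtrl-OGDR. In shAnxa2 cells it measured 469.5, 434 and 460.4 CPM untreated and 457, 468 and 484 CPM after OGD/R. The 3 shCtrl-OGDR libraries lay under all the others, whose differences did not pass the test. Cd9 fell 1.20-fold with OGD/R in shCtrl cells (-0.27, SE 0.05, adjusted p = 0.000161), and in shAnxa2 cells its change was 0.05 (SE 0.05, adjusted p = 0.493). Its interaction was 0.31 (SE 0.08, adjusted p = 0.000914).

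**Figure D3:**
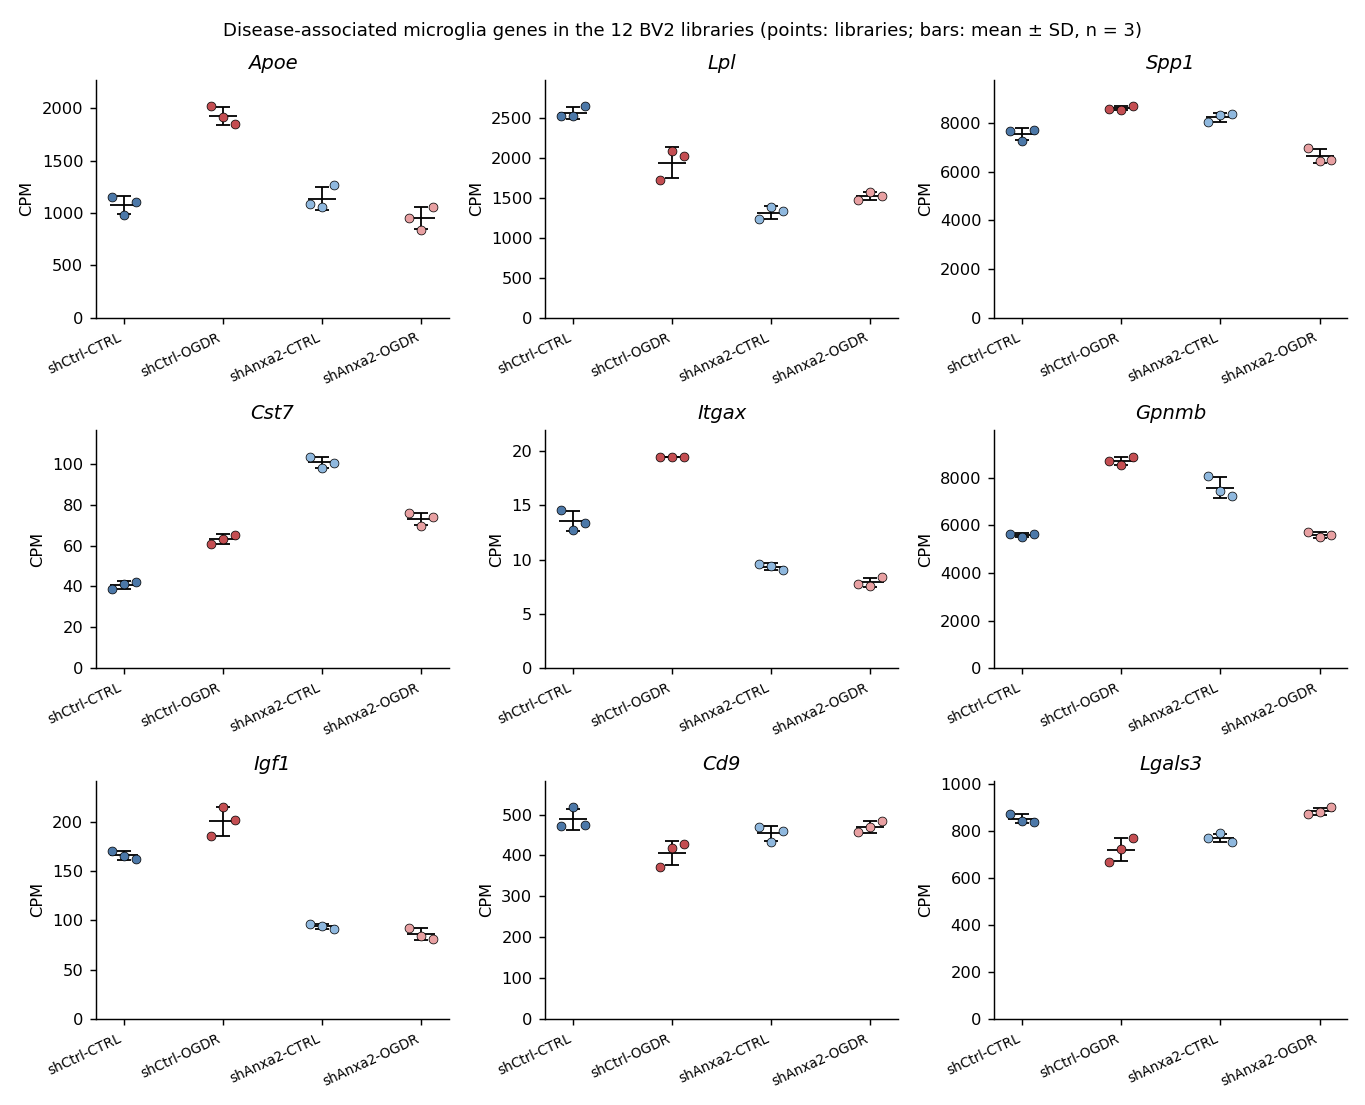
CPM of the 9 DAM genes in each of the 12 libraries (points) by group, with the mean ± SD of the 3 libraries, on linear axes that start at 0. The shCtrl-OGDR libraries are the highest for Apoe, Spp1, Gpnmb, Itgax and Igf1, the shAnxa2-CTRL libraries for Cst7, and both shAnxa2 groups are the lowest for Lpl, Itgax and Igf1.

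Side by side, the line comparisons divide the set. Among untreated cells, 3 of the 9 genes were higher in shAnxa2 (Cst7, Gpnmb and Spp1) and 4 lower (Lpl, Igf1, Itgax and Lgals3), against 29.5% of all genes higher and 29.7% lower, 59.2% in all. After OGD/R, 3 were higher (Lgals3, Cd9 and Cst7) and 6 lower (Itgax, Igf1, Apoe, Gpnmb, Spp1 and Lpl), against 33.8% and 34.2% of all genes, 67.9% in all. A log2 fold change of at least 1 was reached by Cst7 alone in untreated cells, upwards (3.88% of genes upwards, 1.93% downwards), and by Apoe, Itgax and Igf1 after OGD/R, downwards (6.45% downwards, 3.72% upwards). Lpl, Itgax and Igf1 were lower in shAnxa2 cells in both states, as were 5.96% of all genes, and Cst7 was higher in both, as were 4.61%. Spp1 and Gpnmb changed from higher to lower, as did 16.7% of genes. In these comparisons the microglia and macrophage markers moved as well: 9 of the 16 were lower and 3 higher in untreated shAnxa2 cells, and 11 were lower and 3 higher after OGD/R. Their summed level was 4565 to 4713 CPM in shCtrl-CTRL, 4875 to 5232 in shCtrl-OGDR, 4160 to 4413 in shAnxa2-CTRL and 4035 to 4148 in shAnxa2-OGDR. Their part in the result was not tested, and in bulk libraries fewer cells of a state and less RNA per cell cannot be told apart.

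A wider list held 49 other DAM genes, of which 39 were tested. It too was chosen with earlier results of these data known, so its counts are no independent support. In shCtrl cells 22 rose and 8 fell with OGD/R (median log2 fold change 0.21, against 0.00 over all genes tested), and in shAnxa2 cells 5 rose and 20 fell (median -0.13). Over all genes tested the shares were 32.4% higher and 31% lower in shCtrl cells, and 28.2% and 26.8% in shAnxa2 cells. The interaction was negative for 21 and positive for 8, against 35.1% and 34.9% of all genes. Cd52, a small glycosylated surface protein of leukocytes, rose from 32.2 ± 1.34 to 88.2 ± 4.97 CPM in shCtrl cells (1.45, adjusted p = 1.87e-14) and fell from 43.7 ± 4.02 to 18.4 ± 1.84 CPM in shAnxa2 cells (-1.24, adjusted p = 8.53e-12; mean ± SD, n = 3). Atp6v0d2, a subunit of the proton pump that acidifies lysosomes, rose from 5.51 ± 0.829 to 12.4 ± 1.73 CPM and fell from 14.04 ± 2.54 to 6.34 ± 0.435 CPM. Fabp5, a fatty acid carrier of the cytoplasm, went from 465 ± 27.4 to 755 ± 67.8 CPM in shCtrl cells and from 586 ± 38.3 to 376 ± 32.5 CPM in shAnxa2 cells. The chemokine Ccl6 moved oppositely, falling from 30.1 ± 0.265 to 16.8 ± 0.450 CPM in shCtrl cells and rising from 25.4 ± 3.39 to 34.7 ± 2.43 CPM in shAnxa2 cells. The interactions of these 4 genes were -2.70, -2.31, -1.34 and 1.29. Axl, Cd5l, Ch25h, Cd34, Dkk2, Fabp3, Hpse, Lox, Postn and Serpine2 did not reach the test minimum.

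Genes of resting microglia, which are low in the DAM state, moved in both directions. Of 24 such genes 17 were tested, and Sall1, Siglech, Gpr34, Slc2a5, Slco2b1, Sparc and Crybb1 were not. With OGD/R, 7 rose and 7 fell in shCtrl cells (median -0.34) and 6 rose and 4 fell in shAnxa2 cells (median 0.29), against 32.4% and 31% of all genes in shCtrl and 28.2% and 26.8% in shAnxa2 cells. Tmem119, a membrane protein used as a microglia marker, fell from 4.83 ± 0.0246 to 1.87 ± 0.475 CPM in shCtrl cells (-1.40, adjusted p = 6.77e-08) and rose from 5.63 ± 0.377 to 10.3 ± 0.449 CPM in shAnxa2 cells (0.87, adjusted p = 4.03e-06). The sialic acid receptor Cd33 went the other way, with a rise of 1.13 in shCtrl cells and a change of -0.84 in shAnxa2 cells on the log2 scale. Selplg, the P-selectin ligand, changed by 0.72 and -0.65, and the fractalkine receptor Cx3cr1, near 4 CPM, by 0.50 and -0.94. All 4 had an interaction past the test, positive for Tmem119 (2.26) and negative for Cd33 (-1.97), Cx3cr1 (-1.44) and Selplg (-1.37). Over the 17 tested genes the interaction was positive for 9 and negative for 6 (median 0.66), against 34.9% and 35.1% of all genes.

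Upstream of the state, Trem2 itself ran opposite to Apoe. It fell from 186 ± 1.06 to 161 ± 10.3 CPM in shCtrl cells (-0.21, adjusted p = 0.000624) and rose from 154 ± 4.18 to 199 ± 3.15 CPM in shAnxa2 cells (0.37, adjusted p = 6.11e-07), with an interaction of 0.58 (adjusted p = 5.1e-08). Tyrobp, the adaptor of Trem2, rose in shCtrl cells (0.21, adjusted p = 0.00426), as Apoe did. In shAnxa2 cells its change did not pass the test (0.03, adjusted p = 0.743). The kinase Syk, which carries signals of Trem2 and of Dectin-1, changed like the majority of DAM genes, by 0.48 and -0.32. The receptors Csf1r and Tgfbr1 changed like Trem2, by -0.34 and 0.32 for Csf1r and by -0.35 and 0.33 for Tgfbr1. Of the 18 tested of 19 listed receptors and signalling genes, 7 rose and 7 fell in shCtrl cells and 7 rose and 6 fell in shAnxa2 cells. All 23 listed transcription factors were tested, and 11 rose and 8 fell in shCtrl cells while 7 rose and 11 fell in shAnxa2 cells. Both lists stand against 32.4% of all genes higher and 31% lower in shCtrl cells, and 28.2% and 26.8% in shAnxa2 cells. Tfeb, a regulator of lysosomal genes, rose from 29.1 ± 0.996 to 66.8 ± 3.78 CPM in shCtrl cells and fell from 38.7 ± 2.40 to 24.6 ± 2.11 CPM in shAnxa2 cells. The lipid receptor Ppard (0.91 and -0.78) and the stress factor Atf3 (1.01 and -0.60) moved alike. Fos, a subunit of AP-1, fell from 13.6 ± 0.967 to 2.71 ± 0.415 CPM in shCtrl cells (-2.32, adjusted p = 1.15e-12) and rose from 3.96 ± 0.574 to 7.08 ± 1.08 CPM in shAnxa2 cells (0.83, adjusted p = 4.76e-05).

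The partners of the DAM genes were read in the same way, against all genes tested, of which 32.4% rose and 31% fell in shCtrl cells and 28.2% rose and 26.8% fell in shAnxa2 cells. These lists share genes with the other DAM genes, such as Fabp5 and Ctsb. Among 20 tested partners of Apoe and Lpl (of 25), 8 rose and 5 fell in shCtrl cells and 3 rose and 6 fell in shAnxa2 cells. The fatty acid carrier Fabp4 rose from 49.1 ± 4.54 to 114 ± 11.8 CPM in shCtrl cells and fell from 61.4 ± 5.97 to 39.5 ± 3.69 CPM in shAnxa2 cells. The fatty acid translocase Cd36 was lower in shAnxa2 cells in both states, at 95.1 ± 4.84 CPM in shCtrl-CTRL, 50.9 ± 2.20 in shCtrl-OGDR, 16.0 ± 2.61 in shAnxa2-CTRL and 18.1 ± 3.13 in shAnxa2-OGDR. The triglyceride lipase Pnpla2 changed by 0.60 and -0.35. Of 11 tested proteases listed with Cst7 (of 12), 6 rose in shCtrl cells and the other 5 did not pass the test. In shAnxa2 cells 5 fell and 2 rose, among the latter Ctsd, which is an aspartic and not a cysteine protease. Of the listed proteases, Ctsf (0.84 and -0.64), Ctsh (0.61 and -0.39), Lgmn (0.43 and -0.25) and Ctsb (0.30 and -0.19) each rose in shCtrl and fell in shAnxa2 cells, an order found in 22% of all genes.

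Of 25 tested partners of Spp1, Cd9, Itgax, Gpnmb and Lgals3 (of 27), 8 rose and 10 fell in shCtrl cells (all genes: 32.4% and 31%), and 9 rose and 9 fell in shAnxa2 cells (all genes: 28.2% and 26.8%). The galectin 3 binding protein gene Lgals3bp rose from 62.4 ± 3.25 to 104 ± 2.12 CPM in shCtrl cells and fell from 104 ± 6.72 to 70.1 ± 4.97 CPM in shAnxa2 cells, the reverse of Lgals3. Sdc1, a heparan sulfate proteoglycan, changed by -1.03 and 0.44. The integrin subunit genes Itgb3 and Itga9 were near 1 CPM. In the Igf1 axis, where 7 of 14 listed genes were tested, 3 rose and 1 fell in shCtrl cells and 2 rose and 2 fell in shAnxa2 cells, to be set against the same shares of all genes. Igf1r, the receptor, was lower in shAnxa2 cells in both states, as its ligand was (-0.65, adjusted p = 2.23e-08 untreated, and -1.05, adjusted p = 2.47e-12 after OGD/R). The secreted protease Htra1 rose from 8.13 ± 0.623 to 32.5 ± 2.48 CPM in shCtrl cells and fell from 25.7 ± 0.648 to 9.53 ± 1.09 CPM in shAnxa2 cells. Igfbp4, which binds the growth factor, changed by -0.93 and 0.94, and the insulin receptor gene Insr by 0.53 and -0.48.

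**Figure D4:**
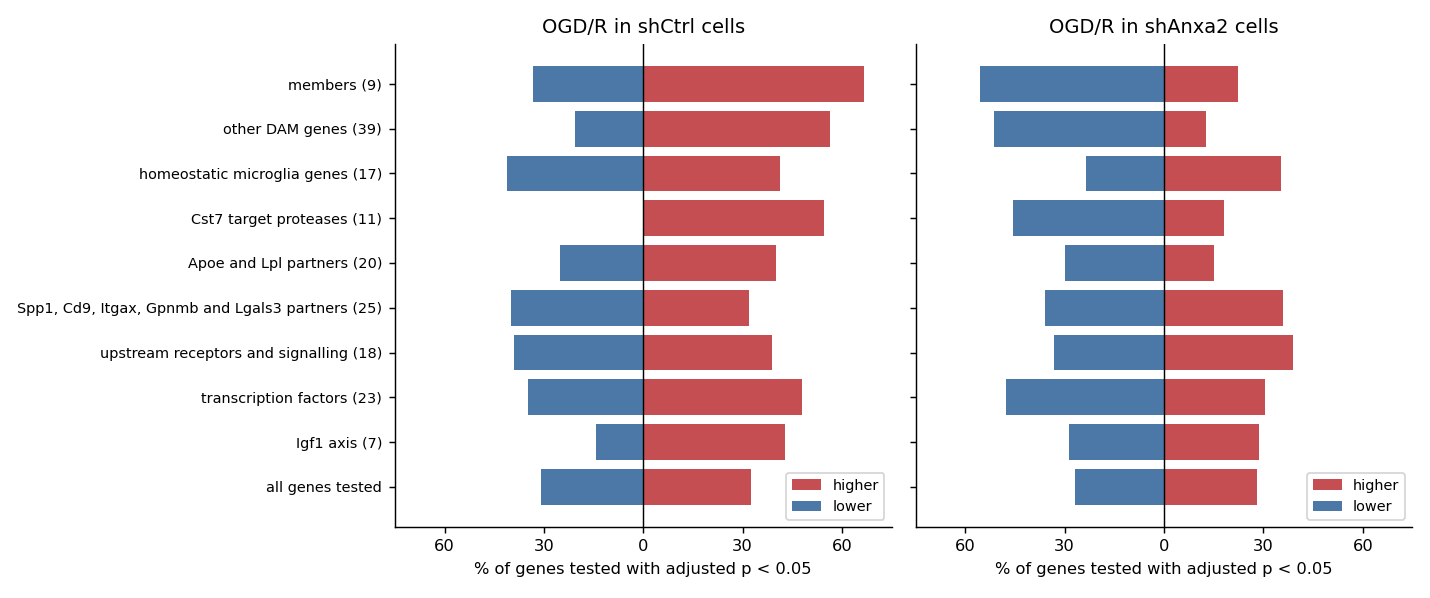
Share of the genes tested in each list (number tested in brackets) that rose (red, to the right) or fell (blue, to the left) with OGD/R at an adjusted p under 0.05, in shCtrl cells (left) and shAnxa2 cells (right), with all 11626 genes tested in the bottom row. The DAM genes and the 39 other DAM genes have their longer bar to the right in shCtrl and to the left in shAnxa2 cells. So do the list labelled Cst7 target proteases, the Apoe and Lpl partners and the transcription factors. Some genes stand in several lists, among them Fabp5, Ctsb and Trem2, so the rows are not independent of each other.

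For the 4 DAM genes with a log2 fold change of at least 1 between groups that differ in line or treatment, Apoe, Cst7, Itgax and Igf1, the genes with the nearest profile were sought. Likeness was the root of the mean squared difference between centred log2(CPM + 0.1) values over the 12 libraries, computed for 10546 genes, where a smaller value is a closer profile. Nearest to Apoe were Rnf113a1 (0.0846) and Pold4 (0.1002), where the centred profile of Apoe itself had a root mean square of 0.405. Igf1 had Myo1e (0.0852) and P2rx7 (0.0970), against 0.526 of its own. For Cst7 they were Cdk2ap2 (0.122) and Spata13 (0.123), against 0.471, and for Itgax H2-DMb1 (0.125) and Ago1 (0.125), against 0.501. These values describe the libraries and carry no test.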

How the data were processed

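RNA of BV2 cells was sequenced in 12 libraries. The authors deposited raw counts of reads per gene, beside 12 columns of counts divided by a size factor, which were not used here. The submitters' processing notes name HISAT2 2.0.4 and the build mm39, whereas the paper's methods, written for hippocampi, name other tools. The library kit does not mark strand.

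Counts were analysed in edgeR 4.0.16 (R 4.3.3) with TMM factors, a minimum of 0.5 CPM in 3 or more libraries, and 1 quasi-likelihood model over 12 libraries with group as the only term. Calls used a Benjamini-Hochberg adjusted p under 0.05 over 11626 genes, and beside it an unadjusted p under 0.05 together with a log2 fold change of 1 or more in size. The SE is the log2 fold change divided by the square root of F. The common biological coefficient of variation was 5.35%. An exact permutation test of 3 against 3 libraries cannot go below p = 0.1. Replicates differed by more than counting error (chi-square per gene 3.89 to 12.7). RPKM used union exon lengths of GENCODE M21 (GRCm38), matched by gene ID. The steps were tested on simulated counts in which few genes changed, and only in a single group. That setting differs from these data, where most genes were called, so it does not test the scaling or the false calls here.

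Named genes were Anxa2, all members, from each list up to 4 genes with the largest interaction among those called at a mean of at least 1 CPM (for marker lists, the 3 most abundant), and the 2 nearest profiles of members reaching a log2 fold change of 1, passing over unnamed or predicted genes. P2ry12, Tyrobp, Ctsd, Cldn5, Tek and the untested genes are named outside this rule. The members and lists were chosen with earlier results of these data known. Alternatives were median-of-ratios and upper quartile factors, no filter or 1 CPM, DESeq2 1.42.0, limma 3.58.1 voom, only the groups compared, a replicate block, and leaving out each library.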

Additional observations from a re-analysis of the deposited data

Results flagged for a closer look

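For each of the 9 DAM genes the OGD/R change differed between the lines in edgeR's interaction test (adjusted p under 0.05). The difference, shAnxa2 minus shCtrl on the log2 scale, was -1.10 for Apoe, -1.09 for Cst7, -1.07 for Gpnmb, -0.77 for Itgax, -0.50 for Spp1 and -0.40 for Igf1. It was 0.61 for Lpl, 0.44 for Lgals3 and 0.31 for Cd9. An interaction past the test was also found for 70% of all genes tested. An exchange of CTRL and OGDR among the libraries of either line would change each of these values, and the labels were not tested.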

How the results depend on the processing

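How many of the 9 genes were called higher or lower in each comparison stayed within 1.5 times its value in all 198 alternative counts. With so few genes this limit is wide. In shAnxa2 cells, for example, 4 genes fell with OGD/R in DESeq2 and 6 with median-of-ratios factors. The calls over all genes were not compared in this way. Of 891 alternative values of the 9 genes, 873 kept direction and call, 10 lost the call, 7 gained one and 1 changed sign. The sign change was that of Apoe between untreated lines, not called in either case, 0.08 in the fit of all libraries and -0.0057 (without shAnxa2-CTRL replicate 3) to 0.125 (without shAnxa2-CTRL replicate 2) when leaving out 1 library. The fall of Itgax in shAnxa2 cells lost its call in 9 settings, including no filter (adjusted p = 0.0506), DESeq2 (0.0528), voom (0.062) and only the 2 groups compared (0.0702), and that of Lgals3 between untreated lines with upper quartile factors (0.0555). The change of Igf1 in shAnxa2 cells passed in 7 settings, including median-of-ratios (0.0467) and upper quartile factors (0.0136), no filter (0.0113) and a filter of 1 CPM (0.0444). The cause was not tested.

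With the replicate block, the 45 results of the 9 genes kept their calls, for example 6 higher and 3 lower with OGD/R in shCtrl cells. The numbers share no stated source, and the deviations of same-numbered libraries correlated at -0.0513 to 0.135 over 18 pairs, with a library correlating best with its own number in 13 of 36 comparisons. With 1 shRNA against Anxa2, the spread between shRNAs was not measured, and whether the spread between libraries is that between cultures is not given in the sources used here. The treatment labels of the libraries, on which each OGD/R direction in both lines rests, were not tested.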
